A study of Mus musculus with 16 samples.

Results

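The genes described here encode the subunits of the proteasome and the factors that assemble and regulate it. They were taken by symbol, as the genes named Psm with a letter from a to g and a number, without Psmb8, Psmb9 and Psmb10, which gives 45 genes among 38926 gene names in each of 2 tables and among 21603 gene identifiers in the files of the Yap1/Taz libraries. Of these 45 genes, 43 had a mean of at least 1 FPKM (read counts scaled for gene length and library depth) over the mpEC and bmEC libraries. It was 44 over the Yap1/Taz libraries and 44 over the Lats2 libraries, and only genes past this limit were tested.

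The proteasome degrades proteins that carry chains of ubiquitin. Its barrel-shaped core is built from rings of alpha and beta subunits, of which Psmb5, Psmb6 and Psmb7 cut the substrate, and its cap holds a ring of ATPases (Psmc genes) that unfolds substrates and a set of non-ATPase subunits (Psmd genes) that bind ubiquitin and remove it. In endothelial cells (ECs) it is known as the route by which hydroxylated HIF alpha subunits are removed after the ligase subunit Vhl has bound them, and Yap1 and Taz that have been phosphorylated by Lats kinases can also be degraded by it.

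RNA was sequenced from ECs sorted from mouse bone, with the aim of comparing ECs of different bone regions and ECs without regulators of the Hippo pathway. All libraries carry the label C57BL/6. The 3 mpEC and 3 bmEC libraries, labelled wildtype, came from the metaphysis and from the marrow cavity of the diaphysis of 3-week-old mice with a Cdh5-mTnG reporter, according to the methods. The 3 Yap1/Taz control libraries came from mice at postnatal day 21 with Yap1flx/flx and Wwtr1flx/flx alleles that were Cdh5CreERT2 negative, and the 3 libraries labelled Yap1/Taz ECKO from Cdh5CreERT2 positive mice with the same alleles and of the same age. The 2 Lats2 control libraries and the 2 Lats2 cKO libraries carry Lats2flx/flx and are Cdh5CreERT2 negative and positive. The promoter of Cdh5, a gene of ECs, drives the CreERT2 recombinase, which tamoxifen activates. According to the methods tamoxifen was injected into pups, controls were littermates without Cre, and animals were grouped irrespective of sex, while for bone of wild-type animals the methods name males. The labels do not state the sex. For Yap1/Taz mutants examined at postnatal day 21 the injections were on days 6 to 8, and the labels of the libraries do not state this schedule. The Lats2 mice were 3 weeks old according to the methods; their labels give no age. Each gene was measured as FPKM by RNA-seq of total RNA. Reads recovered from the FPKM values numbered 11163259 to 14807040 per library for mpECs and bmECs, 4889916 to 7162896 for Yap1/Taz and 4740969 to 7084031 for Lats2. The 3 sets of libraries were normalized separately, so levels are compared within a set only.

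Within a set the levels of the members spanned a wide range. In the mpEC and bmEC set Psmb1, a beta subunit of the core, was the most abundant member, with 391, 340.1 and 371 FPKM in mpECs 1 to 3 and 373, 348 and 317 FPKM in bmECs 1 to 3. In the Yap1/Taz set it was Psma2, an alpha subunit, with 185, 146 and 152 FPKM in the controls and 139.5, 171 and 155 FPKM in the libraries labelled Yap1/Taz ECKO. In the Lats2 set it was again Psmb1, with 174 and 156 FPKM in the controls and 225 and 267 FPKM in Lats2 cKO. Psmb1, Psma2 and Psmb2, in this order, had the highest mean FPKM in the mpEC and bmEC set and in the Lats2 set.

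At the other end stood the members with a known restriction to other tissues. Psmb11, the beta subunit of the thymus, stayed under the limit in all 3 sets, with 0.0858 to 0.260 FPKM in the mpEC and bmEC libraries, 0 to 0.403 FPKM in the Yap1/Taz libraries and 0 to 0.312 FPKM in the Lats2 libraries. Psma8, the alpha subunit of the testis, had 0.355 to 1.00 FPKM in the mpEC and bmEC libraries and was not tested there, and its 10 to 25 recovered reads per library in the Yap1/Taz set and 10 to 19 in the Lats2 set give it little precision. Among the other activators and regulators, Psme4, an activator of the core, had 5.10 to 6.04 FPKM in mpECs and bmECs, and Psmf1, an inhibitor of the core, 13.6 to 17.5 FPKM.

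Subunits of one ring, which are present in equal numbers in the assembled particle, differed in transcript level. In mpEC 1 the 7 alpha subunits tested ran from 76.3 FPKM (Psma4) to 281 FPKM (Psma2). The 7 beta subunits tested ran from 129 FPKM (Psmb3) to 391 FPKM (Psmb1) and the 6 ATPases from 55.6 FPKM (Psmc2) to 219 FPKM (Psmc1). Among these tested genes the ratio of the highest to the lowest was 3.69 for the alpha, 3.04 for the beta and 3.94 for the ATPase genes in that library. The chaperones that build the core (Psmg genes) lay lower, from 7.13 FPKM (Psmg3) to 39.1 FPKM (Psmg2) in the same library. In mpECs and bmECs replicates differed less in the members than in all genes tested: the median coefficient of variation of the members was 6.69% over mpECs and 5.68% over bmECs, against 11.7% and 11.4% over all genes, and 8.12% and 7.70% over the genes in the middle range of the members' levels. In Yap1/Taz controls it was 12.3%, against 12.5% for all genes and 10.8% for genes in the range of the members' levels, so there the members varied more than genes of like level. This was the only group where they did. The members had 8.08% in the libraries labelled Yap1/Taz ECKO, 4.61% in Lats2 controls and 8.83% in Lats2 cKO, against 8.61%, 6.19% and 9.75% for genes of like level and 9.99%, 8.55% and 12.7% for all genes.

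**Figure D1:**
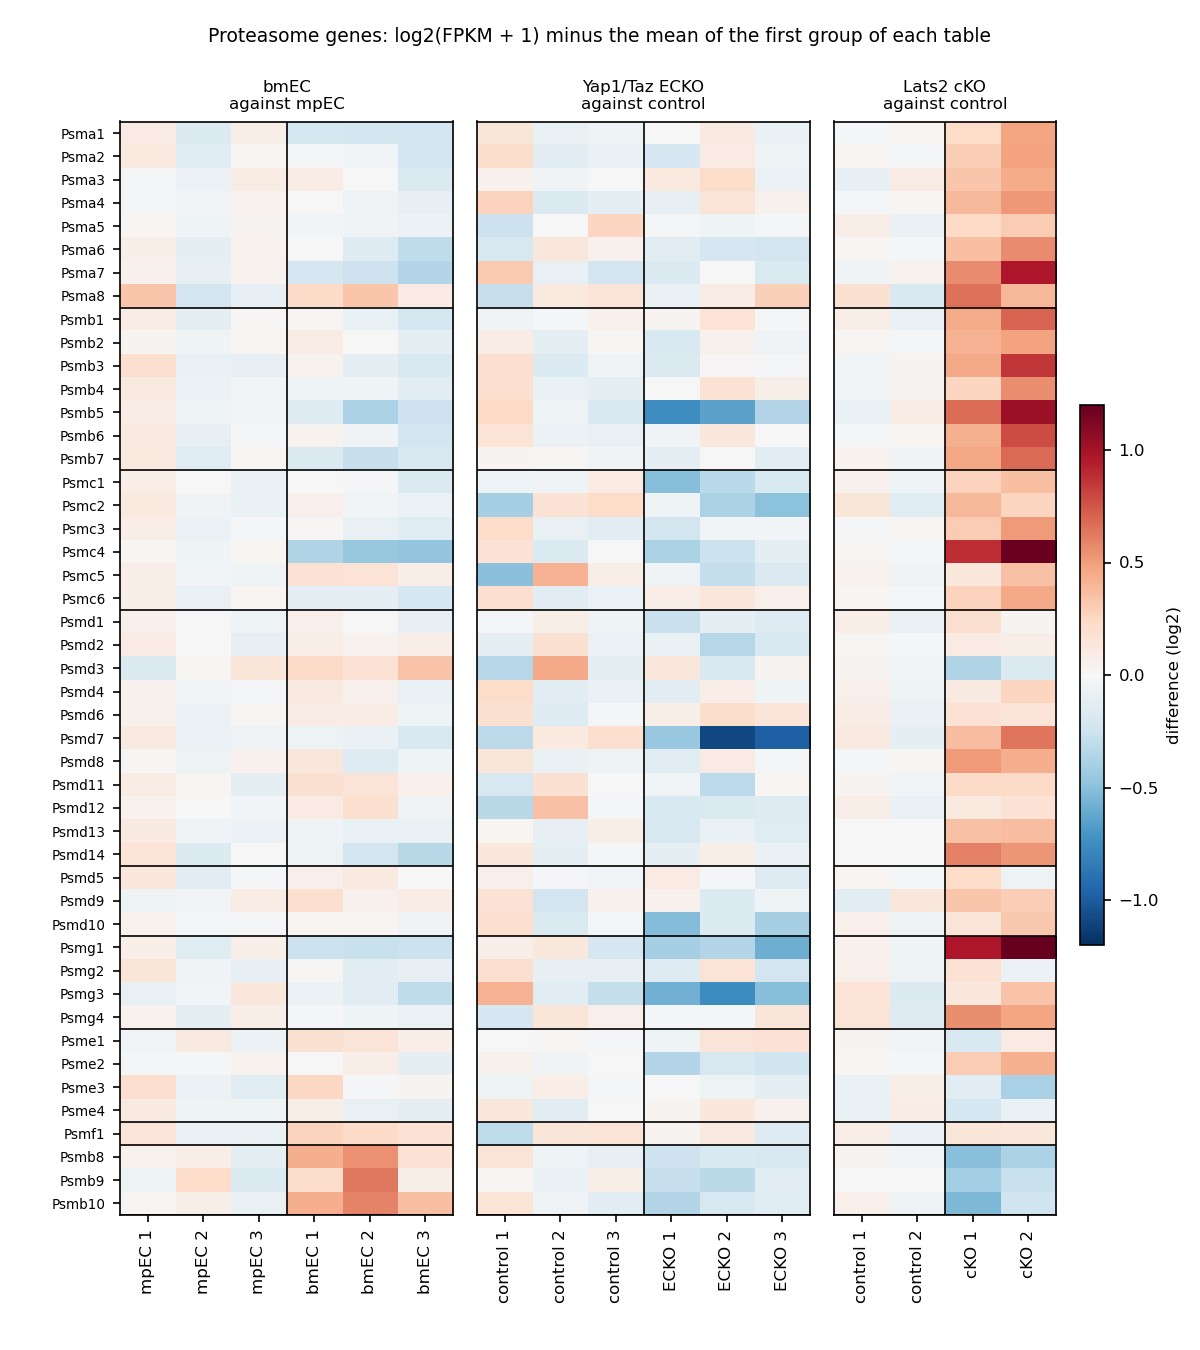
Difference of log2(FPKM + 1) from the mean of the first group of each set (mpEC, Yap1/Taz control, Lats2 control), with a row for each member and for Psmb8, Psmb9 and Psmb10 in order of role, and a column for each library. Lats2 cKO 2 had the highest value of its set for 29 of 44 members and mpEC 1 the highest of its set for 23 of 43.

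The comparison of Lats2 cKO with its control asks how ECs of bone differ without the kinase Lats2, which phosphorylates Yap1 and Taz. Lats2 itself, on the scale of FPKM over the whole gene, was at 23.4 and 24.0 FPKM in the controls and 19.2 and 19.2 FPKM in Lats2 cKO. Both Lats2 cKO libraries lay below both controls, but the difference, -0.29 on the log2 scale with a standard error (SE) of 0.11, was not called (adjusted p = 0.125). Each gene was tested with limma, a linear model with variances pooled over genes, on log2(FPKM + 1), p-values were adjusted over all genes tested, and a gene was called higher or lower at an adjusted p under 0.05.

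In this comparison 12 of the 44 members tested were called higher (27.3%) and 0 lower, against 11.79% of all 12453 genes tested that were called higher and 9.982% that were called lower. At an unadjusted p under 0.05 there were 24 members, without a share of all genes to set beside them. By limma-voom on recovered reads, a tool added after seeing the data, 8 of the 44 members were called higher and 0 lower. Of all 11727 genes in that fit 3316 were called, 1270 of them higher. The values of the groups did not overlap and were higher in Lats2 cKO for 36 members (81.8%), where this held for 33.98% of all genes, and lower for 2 members (4.55%), Psmd3 and Psme3, where this held for 34.19% of all genes. The median log2 fold change of the members was 0.36, from -0.27 to 1.10, against -0.00 over all genes tested. Positive fold changes were found for 40 members and negative ones for 4, but the split was 37 to 7 with quantile normalization and 36 to 8 with limma-voom. It was 27 to 17 when libraries were scaled to equal sums of FPKM over all genes but the hemoglobin genes, below called without the hemoglobin genes. That scaling moved the median of all genes by -0.24. The deposited sums were not equal (342284 and 341172 in the controls, 382473 and 444999 in Lats2 cKO), so its effect is not that of the hemoglobin genes alone. Relative to the median of all genes, that of the members was 0.37 as reported, 0.23 with quantile normalization, 0.38 with limma-voom and 0.33 without the hemoglobin genes. No member passed the stricter rule of the study's methods, an adjusted p under 0.01 with an absolute log2 fold change over 0.5. Of all genes tested, 0.851% passed it as higher and 1.21% as lower.

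With 2 libraries a group, single libraries weighed heavily on the count of calls. Without Lats2 control 1 or without Lats2 control 2, when the remaining control is taken to vary like the other group, 0 of 44 members and 0 of all genes were called, while the median log2 fold change of the members stayed at 0.38 and 0.36. Without Lats2 cKO 2 the count was 2 (Psmc4 and Psmg1) with a median of 0.30, and without Lats2 cKO 1 it was 14 with a median of 0.42. With all libraries kept, the count called higher was 3 of 45 when all genes above 0 were tested, where 720 of 19822 genes were. It was 6 of 44 with quantile normalization (1400 of 12453 genes) and 3 of 44 without the hemoglobin genes (903 of 12479). Without the variance trend it was 4 of 44 (1168 of 12453). With replicate numbers as blocks it was 7 of 44 (1457 of 12453), although no pairing of the libraries is stated. Without the hemoglobin genes and without the trend the share of members was close to that of all genes.

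Of the 8 alpha subunits, all had positive fold changes with a median of 0.42, and 2 were called higher, Psma7 and Psma4. The 7 beta subunits tested, the ring that holds the cutting sites, had the highest median of the groups with more than 1 tested gene, 0.57, and 6 were called higher: Psmb1, Psmb2, Psmb3, Psmb5, Psmb6 and Psmb7. Without the hemoglobin genes in the scaling 14 of these 15 core genes had positive fold changes and 1 of them, Psmb5, was called. Among the 6 ATPases the median was 0.35 and 1 was called higher, Psmc4. The 11 non-ATPase subunits of the cap had a lower median of 0.18 with 2 called higher, Psmd8 and Psmd14, and the 3 chaperones of the cap's base, Psmd5, Psmd9 and Psmd10, a median of 0.24 with 0 called. The median was 0.38 for the 4 chaperones of the core, with 1 called higher, Psmg1. The 4 activators, which open the core from outside the cap, had a median of -0.10 with 0 called. Differences between these groups of genes were not tested, and without the hemoglobin genes in the scaling the median of the 11 non-ATPase subunits was -0.09 and that of the beta subunits 0.29.

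**Figure D2:**
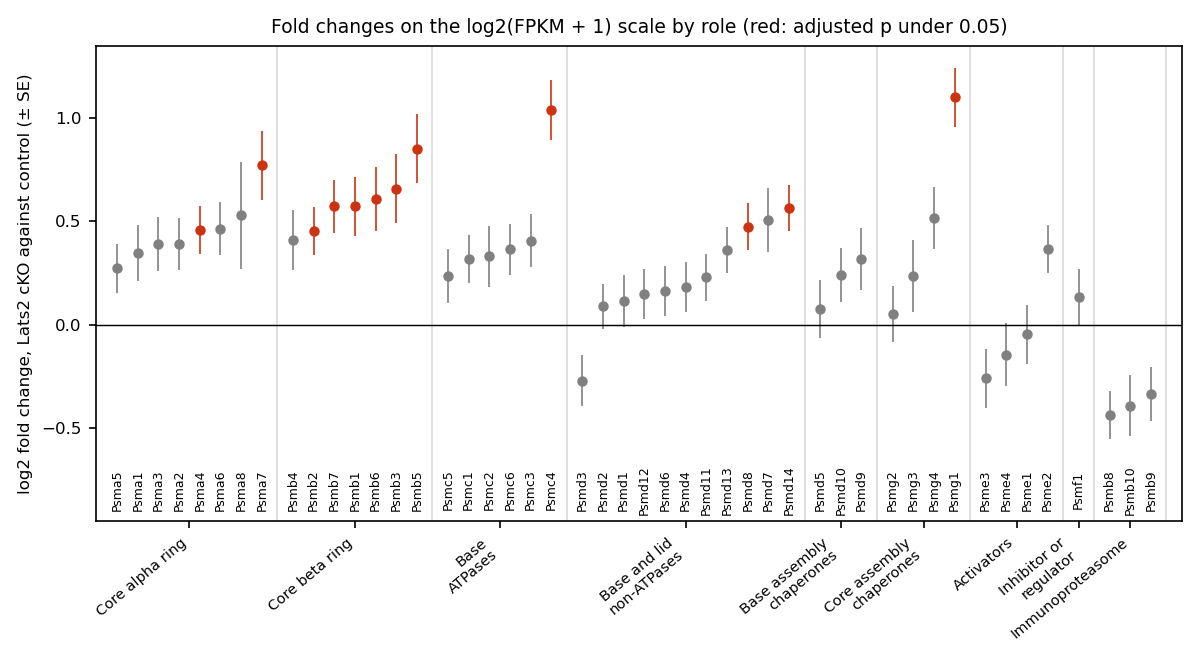
Log2 fold change of Lats2 cKO (n = 2) against control (n = 2) on the log2(FPKM + 1) scale, with its standard error, for each tested member and for Psmb8, Psmb9 and Psmb10 in order of role, in red where the gene was called. The 12 called members run from 0.45 to 1.10. The activators Psme1, Psme3 and Psme4 and the subunit Psmd3 lie below 0 together with Psmb8, Psmb9 and Psmb10. Psmd2, Psmd4 and Psmf1 are among the members that fall below 0 when libraries are scaled to equal sums without the hemoglobin genes.

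Psmg1, a chaperone that dimerizes with Psmg2 and helps to form the alpha ring, had 13.2 and 12.3 FPKM in the controls and 25.8 and 31.1 FPKM in Lats2 cKO, with 88 to 208 recovered reads. Both Lats2 cKO libraries lay above both controls by more than the distance between replicates. Its rise of 1.10 on the log2 scale (SE 0.14, adjusted p = 0.0121) was the largest among the members and was called in 12 of 14 alternative fits (adjusted p 0.00665 to 0.133). Psmg2, its partner, chosen here after its values were seen, was at 30.4 and 27.8 FPKM in the controls and 32.8 and 27.7 FPKM in Lats2 cKO, with overlapping groups and a log2 fold change of 0.05 (adjusted p = 0.811).

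Psmc4, 1 of the 6 ATPases that thread substrates into the core, had 86.0 and 84.6 FPKM in the controls and 159 and 196 FPKM in Lats2 cKO. The controls differed by little and both Lats2 cKO libraries were far above them. Psmc4 rose by 1.04 (SE 0.14, adjusted p = 0.0133) and was called in 12 of 14 alternative fits (adjusted p 0.00439 to 0.145). The other 5 ATPases had log2 fold changes from 0.24 (Psmc5) to 0.41 (Psmc3), and none of them was called by limma.

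Psmb5, which carries the chymotrypsin-like cutting site and is the target of bortezomib, had 114 and 130.1 FPKM in the controls and 195 and 249.99 FPKM in Lats2 cKO. Its groups did not overlap, and it rose by 0.85 (SE 0.17, adjusted p = 0.0257, called in 10 of 14 alternatives with an adjusted p of 0.0137 to 0.213). Of the 50-base stretches of its transcript, 54.1% are also found in other genes or pseudogenes, such as Psmb5-ps, so reads of those copies may be counted with it or lost. Psmb6, with the caspase-like site, had 93.4 and 97.0 FPKM in the controls and 129 and 165 FPKM in Lats2 cKO. It rose by 0.61 (SE 0.16, adjusted p = 0.0478, called in 7 of 14 alternatives with an adjusted p of 0.0262 to 0.276). Psmb7, with the trypsin-like site, had 61.8 and 57.9 FPKM and 82.7 and 96.5 FPKM. It rose by 0.57 (SE 0.13, adjusted p = 0.0361, called in 6 of 14 alternatives with an adjusted p of 0.0267 to 0.241). All 3 cutting subunits were higher in both Lats2 cKO libraries than in both controls, and Lats2 cKO 2 was the higher of the Lats2 cKO libraries for each.

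The remaining members called with the largest changes were an alpha and a beta subunit. Psma7 had 52.9 and 56.5 FPKM in the controls and 81.7 and 108 FPKM in Lats2 cKO. It rose by 0.77 (SE 0.17, adjusted p = 0.0320, called in 8 of 14 alternatives with an adjusted p of 0.0188 to 0.221). Psmb3, a beta subunit without a cutting site, had 37.7 and 39.4 FPKM in the controls and 53.3 and 70.7 FPKM in Lats2 cKO. It rose by 0.66 (SE 0.17, adjusted p = 0.0457, called in 8 of 14 alternatives with an adjusted p of 0.0249 to 0.256). For both genes Lats2 cKO 2 was highest and the controls lay close together. Psmb1, the most abundant member, rose by 0.57 (SE 0.14, adjusted p = 0.0469), and was called in 6 of 14 alternatives (adjusted p 0.0361 to 0.303). The further called members Psmd8, Psma4 and Psmb2 rose by 0.47, 0.46 and 0.45, and were called in 4 of 14 (adjusted p 0.0315 to 0.387), 5 of 14 (0.0360 to 0.364) and 5 of 14 (0.0392 to 0.390) alternatives.

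The cap subunits that handle ubiquitin differed among themselves. Psmd14, the enzyme that cuts ubiquitin off a substrate, had 29.9 and 30.2 FPKM in the controls and 46.1 and 43.7 FPKM in Lats2 cKO. It rose by 0.56 (SE 0.11, adjusted p = 0.0262, called in 9 of 14 alternatives with an adjusted p of 0.0188 to 0.226). Psmd4, a receptor of ubiquitin, had 47.2 and 43.5 FPKM in the controls and 48.9 and 54.4 FPKM in Lats2 cKO, with a log2 fold change of 0.18 (adjusted p = 0.327) that was not called. Psmd2, a scaffold subunit that binds ubiquitin-like domains, had 88.5 and 87.0 FPKM in the controls and 94.0 and 92.8 FPKM in Lats2 cKO, with 0.09 (adjusted p = 0.586). Psmd2 and Psmd4 did not overlap between the groups, but their distance was small beside that of Psmd14, and both had negative fold changes, -0.19 and -0.09, without the hemoglobin genes in the scaling. Psmd3, a lid subunit chosen here after its values were seen, was lower at 46.2 and 52.9 FPKM in Lats2 cKO against 61.2 and 58.4 FPKM in the controls (-0.27, adjusted p = 0.177), and was called lower without the hemoglobin genes.

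Of the 4 activators 1 had a positive fold change, Psme2, and 3 a negative one. Psme1 and Psme2 form the activator that interferon gamma induces: Psme1 had 60.1 and 57.5 FPKM in the controls and 51.3 and 63.1 FPKM in Lats2 cKO, with overlapping groups (-0.05, adjusted p = 0.833). Psme2 had 65.5 and 64.5 FPKM in the controls and 80.4 and 87.9 FPKM in Lats2 cKO, without overlap (0.37, adjusted p = 0.0778), and shares 28.3% of its 50-base stretches with copies such as Psme2b. Psme3, the activator of the nucleus, had 39.4 and 43.9 FPKM in the controls and 37.9 and 31.5 FPKM in Lats2 cKO (-0.26, adjusted p = 0.243), lower in both Lats2 cKO libraries. Psme4 had 5.95 and 6.84 FPKM in the controls and 5.37 and 5.99 FPKM in Lats2 cKO, with overlap (-0.14, adjusted p = 0.525). The inhibitor Psmf1 had 9.36 and 8.22 FPKM in the controls and 9.79 and 9.64 FPKM in Lats2 cKO (0.13, adjusted p = 0.513; -0.12 without the hemoglobin genes). None of these 5 genes was called by limma, by limma-voom or in any other alternative. Psma8, the least abundant member tested, had 1.19 and 0.695 FPKM and 2.03 and 1.54 FPKM (0.53, adjusted p = 0.200) on 10 to 19 reads, few for a comparison.

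**Figure D3:**
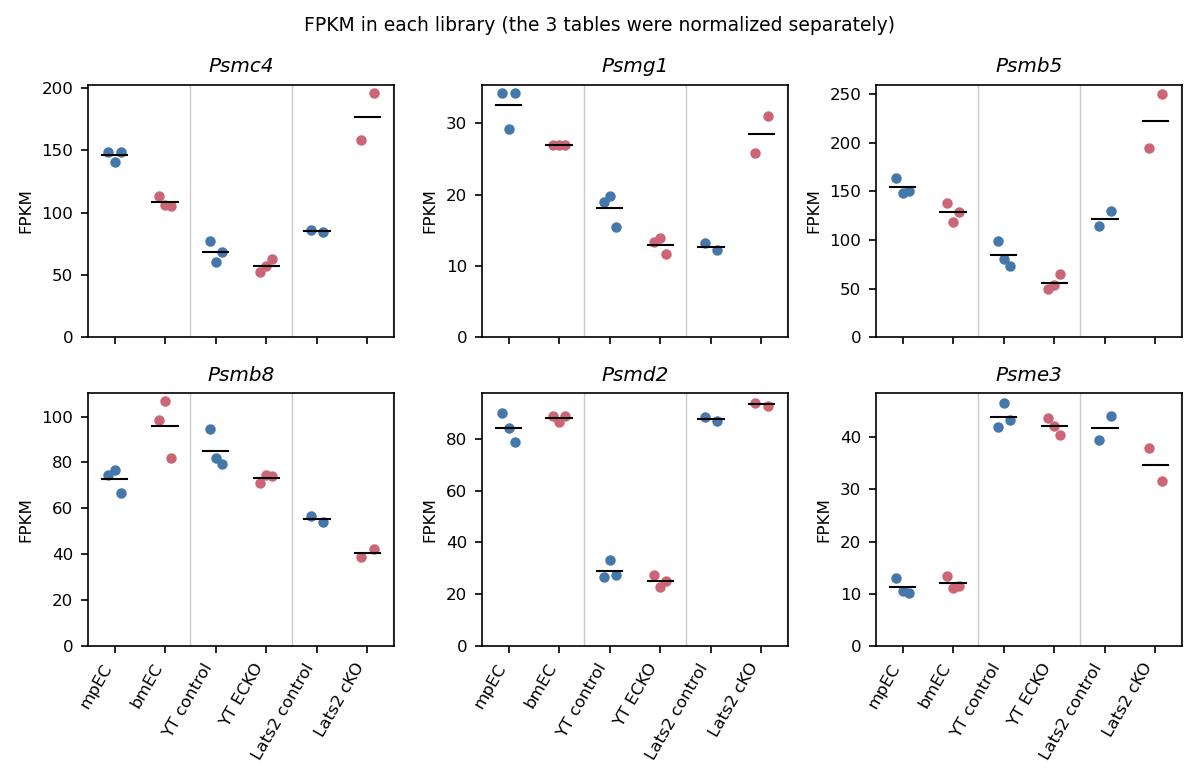
FPKM of Psmc4, Psmg1, Psmb5, Psmb8, Psmd2 and Psme3 in each library, with the mean of each group as a bar; YT stands for Yap1/Taz, and the 3 sets were normalized separately. Psmc4 rises from a mean of 85.3 to 177 FPKM in Lats2 cKO and falls from 146 to 108 FPKM in bmECs.

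The promoters of 3 of the called members, the ones with the largest fold changes, and of Psme3, with a fold change of the other sign, were read to show what stands before these genes. The 4 sequences below are the 250 bases before the transcript start from RefSeq on GRCm38.p6, 5′ to 3′ on the gene's strand. Psmc4 lies on the minus strand (chr7:28050093-28050342), as do Psmg1 (chr16:95990961-95991210) and Psmb5 (chr14:54617996-54618245), and Psme3 lies on the plus strand (chr11:101315963-101316212). Capitals mark matches, on either strand, to any of 6 motifs: the core of the antioxidant response element TGACNNNGC, at which Nfe2l1 and Nfe2l2 are known to act on proteasome genes, the CCAAT box CCAAT, the ETS motif CCGGAAG, GCATGCGC, known from binding sites of Nrf1, the TEAD motif GGAATG, through which Yap1 and Taz are known to act, and the core of the hypoxia response element ACGTG. Motifs were chosen from general knowledge, and Nrf1 here is nuclear respiratory factor 1, not Nfe2l1.
Psmc4: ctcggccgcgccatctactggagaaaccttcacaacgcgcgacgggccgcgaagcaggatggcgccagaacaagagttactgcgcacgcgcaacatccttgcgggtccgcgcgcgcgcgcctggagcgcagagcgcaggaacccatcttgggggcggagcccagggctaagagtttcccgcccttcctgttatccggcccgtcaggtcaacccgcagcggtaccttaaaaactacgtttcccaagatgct
Psmg1: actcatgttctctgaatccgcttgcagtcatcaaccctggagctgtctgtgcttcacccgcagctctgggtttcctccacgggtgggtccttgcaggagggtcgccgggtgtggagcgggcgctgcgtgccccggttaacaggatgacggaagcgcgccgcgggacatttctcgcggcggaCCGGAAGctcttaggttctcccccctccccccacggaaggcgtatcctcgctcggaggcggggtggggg
Psmb5: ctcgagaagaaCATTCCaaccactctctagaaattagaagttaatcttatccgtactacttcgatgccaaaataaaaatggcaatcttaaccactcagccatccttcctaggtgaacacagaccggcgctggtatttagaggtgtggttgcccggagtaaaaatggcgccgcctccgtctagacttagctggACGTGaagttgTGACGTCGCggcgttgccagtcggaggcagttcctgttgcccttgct
Psme3: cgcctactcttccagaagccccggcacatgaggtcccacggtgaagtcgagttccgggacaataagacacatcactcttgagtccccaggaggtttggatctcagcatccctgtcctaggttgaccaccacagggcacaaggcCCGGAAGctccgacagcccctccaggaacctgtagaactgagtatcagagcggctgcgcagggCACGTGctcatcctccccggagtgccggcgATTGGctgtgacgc
Psmc4 holds no match to any of the 6 motifs in this window. Psmg1 holds 1 match, to the ETS motif. Psmb5 holds 3, the antioxidant response element core, the TEAD motif and the hypoxia response core, none of which overlap. Psme3 holds 4, of which the hypoxia core matches on both strands at overlapping bases, beside the ETS motif and the CCAAT box. Of the 45 members, 37 are in the RefSeq table, 9 of them called higher in Lats2 cKO, and motifs were counted per gene, a gene holding a motif if any of its promoters does, among these and among all 27025 genes of the table. The antioxidant response element core was found in 5 of the 37 members (13.5%), 2 of the 9 called ones and 11.5% of all genes. For the CCAAT box it was 13 of 37 (35.1%), 3 of 9 and 37.5% of all genes. The ETS motif was found in 12 of 37 (32.4%), 1 of 9 and 7.83% of all genes. TEAD motif matches were found in 4 of 37 (10.8%), 2 of 9 and 14.4% of all genes, hypoxia core matches in 7 of 37 (18.9%), 3 of 9 and 18.5%, and GCATGCGC in 2 of 37 (5.41%), 0 of 9 and 2.56%. A match describes the letters only.

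Psmb8, Psmb9 and Psmb10 replace Psmb5, Psmb6 and Psmb7 in the immunoproteasome, which interferon gamma induces. Psmb8 had 56.7 and 54.1 FPKM in the Lats2 controls and 38.9 and 42.4 FPKM in Lats2 cKO, with a log2 fold change of -0.44 (adjusted p = 0.0524, 0.0170 to 0.298 over the alternatives). Psmb9 had 11.5 and 11.5 FPKM and 8.47 and 9.44 FPKM (-0.33, adjusted p = 0.127), and Psmb10 91.2 and 83.7 FPKM and 59.7 and 73.7 FPKM (-0.39, adjusted p = 0.116). All 3 were lower in both Lats2 cKO libraries than in both controls and 0 of 3 were called by limma, with all 3 at an unadjusted p under 0.05; by limma-voom 2 were called lower, Psmb8 and Psmb10. The share of Psmb8 in the FPKM of Psmb8 and Psmb5 together, which does not depend on the scaling of a library, was 33.2% and 29.4% in the controls and 16.6% and 14.5% in Lats2 cKO. For Psmb9 with Psmb6 the shares were 10.99% and 10.6% against 6.18% and 5.43%, and for Psmb10 with Psmb7 59.6% and 59.1% against 41.9% and 43.3%. All 3 shares were lower in Lats2 cKO without overlap. The two-sided exact permutation test gave p = 0.333 for each share, the smallest that 2 against 2 libraries allow. The differences kept their sign without any single library.

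Other genes of the pathway were counted from lists. Of 12 proteins that associate with the proteasome or help to build it, 2 were called higher in Lats2 cKO and 0 lower. Pomp, which matures the core, had 148 and 135 FPKM in the controls and 225 and 304 FPKM in Lats2 cKO, a rise of 0.88 (adjusted p = 0.0280). Shfm1, also named Sem1, a small lid subunit outside the symbol rule, had 57.5 and 51.3 FPKM and 93.6 and 140.0 FPKM, a rise of 1.06 (adjusted p = 0.0274). Of the 6 genes of ubiquitin and its activation 1 rose, Rps27a, which encodes ubiquitin fused to a ribosomal protein, from 23.7 and 21.7 FPKM to 44.1 and 55.9 FPKM (1.10, adjusted p = 0.0138). Of the 11 shuttle and unfolding factors 1 rose, Ddi2, a protease that cuts Nfe2l1 into its active form, from 2.12 and 2.23 FPKM to 3.83 and 4.35 FPKM (0.68, adjusted p = 0.0482).

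Among the regulators of subunit transcription Ddi2, named above, rose and others fell. Ngly1, which removes sugars from Nfe2l1, had 16.8 and 13.6 FPKM in the controls and 8.54 and 9.37 FPKM in Lats2 cKO (-0.70, adjusted p = 0.0339). Irf1, a known activator of Psmb8 to Psmb10 transcription, had 54.8 and 59.7 FPKM in the controls and 33.8 and 40.7 FPKM in Lats2 cKO and also fell (-0.61, adjusted p = 0.0361). Nfe2l1, the factor that raises subunit transcription when the proteasome is inhibited, chosen here after its values were seen, had 48.5 and 60.1 FPKM in the controls and 38.0 and 39.4 FPKM in Lats2 cKO and was not called (-0.47, adjusted p = 0.0731). Among 12 ligase and hydroxylase genes that act on Yap1, Taz and HIF alpha subunits, 4 rose (Egln3 by 3.05, Tceb2 by 1.01, Tceb1 by 0.88 and Rbx1 by 0.61) and 1 fell (Cul1, -0.57).

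Several other measures differed between the Lats2 groups in the same libraries. Endothelial markers summed to 1998 and 2161 FPKM in the controls and 1873 and 1573 FPKM in Lats2 cKO, with Cldn5 the most abundant, none of 8 at 0, Pecam1 called higher and Kdr and Tek lower, and Cdh5, which marks ECs, at 229 and 267 FPKM and 276 and 277 FPKM. Erythroid markers summed to 3684 and 2454 FPKM in the controls and 1398 and 243 FPKM in Lats2 cKO, led by Hbb-bs, with 2 of 8 called lower. Neutrophil markers summed to 2878 and 1923 FPKM against 846 and 703 FPKM, led by S100a8, with 5 of 8 called lower and Mpo, Elane and Prtn3 at 0 in Lats2 cKO 2. Of the B cell markers 5 of 6 were called lower (102 and 88.7 FPKM against 32.8 and 27.3, led by Cd79a), and the other, Ebf1, was higher without a call (3.28 and 4.36 FPKM against 6.25 and 6.75, log2 fold change 0.65, adjusted p = 0.0564). Of the megakaryocyte markers only Pf4, 1 of 4, was called lower (28.9 and 107 FPKM against 12.1 and 9.45, led by Pf4, with Gp1bb at 0 in both Lats2 cKO libraries), and Itga2b overlapped between the groups (0.884 and 5.05 FPKM against 0.972 and 0.663). Macrophage markers (0 of 3 called, 501 and 407 FPKM against 267 and 58.2, led by Lyz2) and osteoblast markers (0 of 4 called, 65.7 and 5.46 FPKM against 9.55 and 11.1, led by Col1a1, with Acan at 0 in Lats2 control 2 and both Lats2 cKO libraries) had no call by limma. Of the stroma markers 2 of 4 were called higher, Acta2 and Cxcl12 (29.9 and 38.6 FPKM against 58.8 and 63.7, led by Cxcl12), and Lepr and Pdgfrb were not called. Of the proliferation genes 2 of 5 were called higher, Cdk1 and Birc5 (43.1 and 45.4 FPKM against 82.0 and 64.7, led by Cdk1). Top2a and Ccnb1 were not called (adjusted p = 0.161 and 0.217), and Mki67 overlapped between the groups (8.60 and 7.51 FPKM against 9.78 and 7.30, adjusted p = 0.815). Of 6 genes of sorting stress 1 was called higher and 2 lower (319 and 387 FPKM against 408 and 287, led by Jun).

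The most abundant transcript of the Lats2 set, Gm23935, had 6093 and 7629 FPKM in the controls and 15846 and 26666 FPKM in Lats2 cKO, and the summed FPKM of the libraries was 342284 and 341172 in the controls against 382473 and 444999 in Lats2 cKO. Fold changes were lower for genes with longer exons, across all genes (Pearson -0.15, n = 11727 genes) and across the members (-0.43, n = 44), a correlation over genes, which are not independent replicates. The part of other cells, of these transcripts and of gene length in the members' result was not tested. In sorted bulk cells, fewer cells of a type and less RNA per cell cannot be told apart.

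The comparison of bmECs with mpECs asks how ECs of the marrow differ from ECs of the metaphysis. Here 0 of 43 members were called higher and 1 lower (2.33%), against 12.97% of all 11422 genes called higher and 10.51% called lower. By limma 7 members had an unadjusted p under 0.05, without a share of all genes to set beside them. Limma-voom called 0 members higher and 21 lower with a median of all genes moved by -0.19. Of all 10806 genes in that fit 3306 were called, 893 of them higher. The groups did not overlap for 2 members that were higher in bmECs (4.65%), Psmd3 and Psmf1, and 7 that were lower (16.3%), against 22.12% and 19.17% of all genes. The median log2 fold change was -0.05, from -0.43 to 0.25, and 30 of 43 members had a negative one, against a median of -0.00 over all genes. The median of the members was -0.01 without bmEC 3, -0.02 without mpEC 1 and -0.09 without bmEC 1. All 14 alpha and beta subunits tested had negative fold changes, from -0.26 to -0.01, and they stayed negative under each of the 4 other scalings. Limma-voom, the scaling without the hemoglobin genes and median ratio scaling put the median of all genes at -0.195, -0.0976 and -0.0125. With quantile normalization the median of the members was -0.14. A change to a positive sign was therefore unlikely under these scalings. Without mpEC 1, without mpEC 3 or without bmEC 3, 12 of 14 were negative. The number called lower was 12 with quantile normalization, where 2879 of all 11422 genes were called, 1474 of them higher. It was 10 without the hemoglobin genes in the scaling, where 2808 of 11436 genes were called, 1044 of them higher. Without mpEC 2 it was 3, where 2257 of 11396 genes were called, 1231 of them higher. With the stricter rule of the study's methods it was 0, where 6.51% of all genes were called higher and 5.17% lower.

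The member called lower was Psmc4, which rose in Lats2 cKO. Its FPKM values were 148, 141 and 149 in mpECs 1 to 3 and 113, 106 and 105 in bmECs 1 to 3, with means of 146 ± 4.47 and 108 ± 4.42 (SD, n = 3). Every bmEC library lay below every mpEC library, and the spread within a group was small beside the distance between them. Its log2 fold change was -0.43, called lower (SE 0.07, adjusted p = 0.00462), and it stayed called in 16 of 16 alternative fits (adjusted p 0.000394 to 0.0256). The other ATPases had fold changes from -0.15 (Psmc6) to 0.14 (Psmc5).

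Of the cutting subunits, Psmb5 had 164, 148 and 151 FPKM in mpECs and 138, 118 and 129 FPKM in bmECs, lower in all bmECs but not called (-0.26, SE 0.09, adjusted p = 0.0660). Psmb7 had 146, 122 and 136 FPKM and 119, 111 and 118 FPKM, also without overlap (-0.21, adjusted p = 0.129). The groups of Psmb6 overlapped, with 212, 184 and 195 FPKM and 202, 191 and 168 FPKM (-0.07, adjusted p = 0.621). Psmg1 and Psma7, chosen because they lead the Lats2 result, were also lower in every bmEC library without being called, Psmg1 at 34.3, 29.2 and 34.2 FPKM against 26.9, 26.9 and 27.0 FPKM (-0.26, adjusted p = 0.0682) and Psma7 at 147, 132 and 146 FPKM against 123, 119 and 111 FPKM (-0.26, adjusted p = 0.0517). The other members of the 7 without overlap were Psma1 and Psmc6, beside Psmc4.

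Of the cap subunits and activators followed throughout, none was called in bmECs by limma. Psmd14 had 77.9, 61.7 and 69.4 FPKM in mpECs and 66.4, 59.2 and 54.8 FPKM in bmECs (-0.21, adjusted p = 0.221), with overlap. Psmd2 had 89.9, 84.3 and 78.7 FPKM and 88.9, 86.6 and 88.9 FPKM (0.07, adjusted p = 0.592), and Psmd4 91.02, 85.6 and 87.0 FPKM and 94.6, 91.1 and 82.2 FPKM (0.02, adjusted p = 0.878). The groups of both overlapped. Psme1 to Psme4 had fold changes of 0.14, -0.01, 0.09 and -0.04, with overlapping groups and adjusted p-values of 0.263, 0.924, 0.638 and 0.829. Psmf1, the inhibitor, had 16.2, 13.6 and 13.6 FPKM in mpECs and 17.5, 17.1 and 16.3 FPKM in bmECs, higher in every bmEC library but not called (0.22, adjusted p = 0.141).

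The immunoproteasome genes differed in the other direction. Psmb10 had 82.9, 86.1 and 77.0 FPKM in mpECs and 111, 124 and 105 FPKM in bmECs and rose by 0.46 (SE 0.09, adjusted p = 0.00813, called in all 16 alternatives). Psmb8 had 74.6, 76.8 and 66.8 FPKM and 98.7, 107 and 81.8 FPKM, a rise of 0.39 (SE 0.11, adjusted p = 0.0436), but this call was lost in 10 of 16 alternatives (adjusted p 0.0112 to 0.157). Psmb9 overlapped at 11.9, 14.7 and 11.03 FPKM and 14.5, 19.8 and 13.1 FPKM (0.30, adjusted p = 0.230). The share of Psmb8 in Psmb8 and Psmb5 was 32.0% ± 1.85 (SD, n = 3) in mpECs and 42.6% ± 4.39 in bmECs, and that of Psmb10 in Psmb10 and Psmb7 37.9% ± 3.04 and 49.5% ± 2.99, both without overlap, each with an exact permutation p of 0.1 (two-sided), the smallest that 3 against 3 allow. For Psmb9 in Psmb9 and Psmb6 it was 6.03% ± 1.201 and 7.78% ± 1.43 with an exact permutation p of 0.3.

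**Figure D4:**
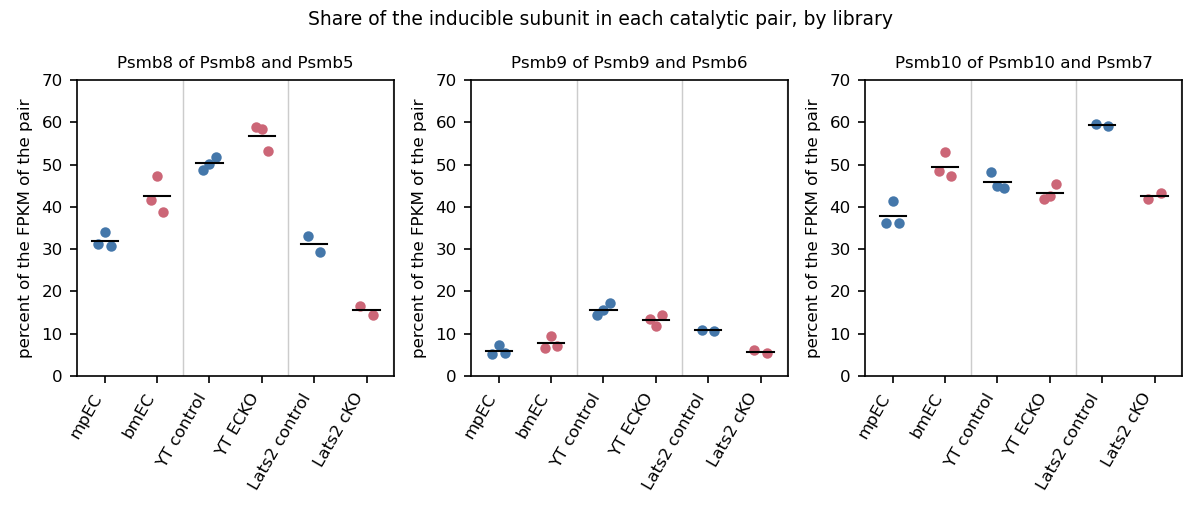
Percent of the FPKM of each catalytic pair that comes from the inducible subunit (Psmb8, Psmb9 or Psmb10), for each library, with the group mean as a bar. For Psmb8 the means are 32.0% in mpECs and 42.6% in bmECs, 50.3% and 56.8% in Yap1/Taz control and ECKO libraries, and 31.3% and 15.6% in Lats2 control and cKO libraries.

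Of the lists, that of regulators of subunit transcription had the most calls in bmECs, with 4 of 11 higher and 1 lower. Ngly1 rose from 15.6, 15.0 and 15.7 FPKM to 24.7, 21.5 and 20.9 FPKM (0.50, adjusted p = 0.00577), Nfe2l2 from 59.1, 58.3 and 51.4 FPKM to 79.7, 79.4 and 76.3 FPKM (0.48, adjusted p = 0.00488), and Nfe2l1 from 7.76, 8.34 and 8.50 FPKM to 10.9, 11.97 and 12.2 FPKM (0.46, adjusted p = 0.00881). Keap1, which holds Nfe2l2 for degradation, rose by 0.38, and Ddi2 fell from 7.01, 7.44 and 9.33 FPKM to 5.52, 5.22 and 5.52 FPKM (-0.47, adjusted p = 0.0256). Rps27a fell from 171, 150.5 and 156 FPKM to 134, 129 and 123 FPKM (-0.31, adjusted p = 0.0303). Ubqln1 rose (0.36) and Ddi2 fell among the 11 shuttle factors, and of the 11 ligase genes tested Cul1 (0.56), Egln1 (0.42) and Vhl (0.35) rose and 0 fell. Of the 12 associated proteins 0 were called by limma in either direction.

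Markers of other cells were abundant in this set. Erythroid markers summed to 52954, 28311 and 33566 FPKM in mpECs and 60447, 56054 and 42552 FPKM in bmECs, led by Hbb-bs, and neutrophil markers to 27826, 11651 and 18013 FPKM and 13904, 9454 and 9942 FPKM, led by S100a8, with 0 of 8 called in each list. Endothelial markers summed to 1249, 1502 and 1452 FPKM in mpECs and 1692, 1615 and 1554 FPKM in bmECs, led by Cldn5, with 4 of 8 called higher and 3 lower. Proliferation genes were called lower for 5 of 5 (211, 145 and 155 FPKM against 102, 84.7 and 91.6, led by Birc5) and osteoblast markers for 3 of 4 tested (524, 291 and 114 FPKM against 42.5, 50.3 and 39.9, led by Bglap). Of the B cell list 1 of 6 was called lower (288, 162 and 151 FPKM against 168, 144 and 152, led by Cd79a) and of the macrophage list 1 of 4 (1879, 1031 and 1336 FPKM against 941, 673 and 765, led by Lyz2). Megakaryocyte markers had 0 of 3 called (317, 73.9 and 123 FPKM against 461, 76.9 and 202, led by Pf4), stroma markers 1 of 3 higher (30.0, 27.3 and 35.4 FPKM against 27.6, 47.2 and 37.9, led by Cxcl12) and sorting stress genes 1 of 5 higher (323, 347 and 582 FPKM against 1443, 1697 and 424, led by Fos). Col2a1, a cartilage gene of the osteoblast list, was at 0 in all 3 bmEC libraries and Acan in 2 of them, and no gene of these lists was at 0 in all 6. Their part in the members' values was not tested.

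The Yap1/Taz comparison asks how the genes differ between Yap1/Taz control libraries and the libraries labelled Yap1/Taz ECKO. The targeted genes did not follow the label. Yap1 had 1.07, 1.62 and 0.995 FPKM in the controls and 1.43, 1.03 and 0.989 FPKM in the libraries labelled Yap1/Taz ECKO, with overlap, on 47 to 103 reads (log2 fold change -0.04, SE 0.18, adjusted p = 0.934). Wwtr1, which encodes Taz, had 10.01, 9.88 and 10.3 FPKM in the controls and 15.3, 19.6 and 19.5 FPKM in the libraries labelled Yap1/Taz ECKO. It was higher in each of the latter and called higher (0.78, SE 0.12, adjusted p = 0.0272), but not without control 2 (adjusted p = 0.0752), control 3 (0.0715), ECKO 2 (0.180) or ECKO 3 (0.144). Reads per exon are not in the files, so loss of the floxed exons cannot be seen. Whether the labels of these groups were exchanged cannot be told from the files, and an exchange would turn the sign of every fold change given for this comparison. Apart from these libraries, the paper reports lower Yap1 and Wwtr1 transcripts by quantitative PCR in mutant bone ECs. It also reports weaker Yap1 immunostaining in mutant bone vessels. Both measures run the way the labels say.

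Of 44 members, 0 were called higher and 0 lower by limma, against 0.8834% and 0.424% of all 11320 genes tested. At an unadjusted p under 0.05 there were 7 members, without a share of all genes to set beside them. Limma-voom called 2 members lower, Psmb5 and Psmd7, and 0 higher. Of all 11310 genes in that fit 357 were called, 205 of them higher. The groups did not overlap for 0 members higher and 7 lower (15.9%) in the libraries labelled Yap1/Taz ECKO, against 12.29% and 11.27% of all genes. The median log2 fold change was -0.06, from -0.84 to 0.14, against -0.00 over all genes, with 32 negative and 12 positive fold changes. It was -0.10 without ECKO 2. Array weights gave 3 members called lower (Psmb5, Psmg1 and Psmd7), where 693 of all 11320 genes were called, 460 of them higher. Quantile normalization gave 1 (Psmb5), where 173 genes were called, 109 of them higher. Without control 1 (114 of 11328 genes called, 74 higher) and without ECKO 1 (293 of 11298 called, 215 higher) 1 member was called lower, each time Psmd7.

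Among the cutting subunits Psmb5 stood apart, with 98.9, 80.9 and 73.8 FPKM in the controls and 49.7, 53.4 and 65.5 FPKM in the libraries labelled Yap1/Taz ECKO (-0.58, SE 0.14, adjusted p = 0.0678, 0.0352 to 0.267 over the alternatives). All 3 labelled Yap1/Taz ECKO were below all 3 controls. Psmb6 had 83.8, 71.0 and 70.1 FPKM and 72.6, 81.7 and 74.7 FPKM (0.03, adjusted p = 0.922), and Psmb7 89.9, 88.8 and 85.4 FPKM and 81.3, 88.2 and 80.6 FPKM (-0.08, adjusted p = 0.696). Both overlapped between the groups.

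The other 6 members without overlap, chosen after their values were seen, were all lower in the libraries labelled Yap1/Taz ECKO. Psmd7, a lid subunit that pairs with Psmd14, had the most negative fold change, with 8.96, 12.4 and 13.1 FPKM in the controls and 8.04, 4.81 and 5.28 FPKM in the libraries labelled Yap1/Taz ECKO on 64 to 194 reads (-0.84, SE 0.19, adjusted p = 0.0645). Psmg3, a chaperone that pairs with Psmg4, had 7.65, 4.87 and 4.30 FPKM and 3.33, 2.84 and 3.53 FPKM on 45 to 105 reads (-0.61, adjusted p = 0.124). Psmg1 had 19.0, 19.8 and 15.5 FPKM and 13.4, 13.9 and 11.7 FPKM (-0.45, adjusted p = 0.0959). None of these passed the threshold. Psmc1 (-0.34), Psme2 (-0.26) and Psmd1 (-0.18) had adjusted p-values of 0.139, 0.178 and 0.356. The partner of Psmg3, Psmg4, overlapped at 28.5, 36.7 and 34.4 FPKM and 32.5, 32.7 and 36.5 FPKM.

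Psmd14 (38.6, 32.5 and 35.0 FPKM against 32.6, 37.2 and 33.3 FPKM, -0.04), Psmd2 (-0.20) and Psmd4 (-0.03) overlapped between the groups, as did Psme1 (0.09), Psme3 (-0.06), Psme4 (0.07) and Psmf1 (-0.00), with adjusted p-values from 0.398 to 0.994. The most and the least abundant member, Psma2 and Psma8, had fold changes of -0.05 and 0.10. Psmb8, Psmb9 and Psmb10 had 94.4, 81.7 and 79.1 FPKM, 14.0, 13.1 and 14.6 FPKM and 84.1, 72.7 and 68.2 FPKM in the controls. In the libraries labelled Yap1/Taz ECKO they had 71.1, 74.7 and 74.2, 11.3, 10.9 and 12.7 and 58.5, 65.5 and 67.4 FPKM. All 3 were lower there without overlap and without a call (-0.21, -0.24 and -0.23, adjusted p = 0.304, 0.256 and 0.305). The share of Psmb8 in Psmb8 and Psmb5 was 50.3% ± 1.45 (SD, n = 3) and 56.8% ± 3.16, higher without overlap in the libraries labelled Yap1/Taz ECKO (exact permutation p = 0.1), while those of Psmb9 (15.7% and 13.2%, exact p = 0.2) and Psmb10 (45.9% and 43.3%, exact p = 0.3) overlapped.

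The pathway lists had 2 calls in this comparison. Zfand5, a proteasome activator among the 12 associated proteins, rose from 27.7, 27.0 and 26.8 FPKM to 35.3, 42.5 and 40.7 FPKM (0.52, adjusted p = 0.0423). Mafk, a partner of Nfe2l1 and Nfe2l2 among the 11 regulators, rose from 22.1, 23.9 and 23.0 FPKM to 31.9, 35.3 and 34.7 FPKM (0.54, adjusted p = 0.0382). In the lists of shuttle factors, ubiquitin genes and ligases, 0 of 11, 0 of 6 and 0 of 12 were called by limma. Endothelial markers summed to 481, 494 and 468 FPKM in the controls and 613, 714 and 721 FPKM in the libraries labelled Yap1/Taz ECKO (1 of 8 called higher, led by Cldn5) and osteoblast markers to 26.3, 27.2 and 31.2 FPKM and 12.8, 4.48 and 5.16 FPKM (2 of 4 lower, led by Col1a1). Of the megakaryocyte markers 1 of 4 was called higher (137, 134 and 153 FPKM against 149, 168 and 168, led by Pf4), and of the sorting stress genes 1 of 6 (769.6, 762 and 913 FPKM against 716, 777 and 784, led by Fos). The remaining lists had 0 calls by limma: erythroid (5424, 4657 and 5582 FPKM against 6692, 4457 and 5045, led by Hbb-bs), neutrophil (2411, 2114 and 2746 FPKM against 3869, 1769 and 1673, led by S100a9), B cell (304, 283 and 253 FPKM against 212, 217 and 212, led by Cd79b), macrophage (749, 742 and 1043 FPKM against 735, 681 and 631, led by Lyz2), stroma (14.5, 17.2 and 16.8 FPKM against 16.2, 12.9 and 13.2, led by Pdgfrb) and proliferation (237, 220.4 and 219 FPKM against 192, 201 and 194, led by Top2a). Acan was at 0 in control 1 and in all 3 libraries labelled Yap1/Taz ECKO, no marker was at 0 in all 6 libraries, and the part of other cells in the members' values was not tested.

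The 3 comparisons share no library, so the fold changes of the members can be set side by side. Across the 43 members tested in both, the fold changes in bmECs against mpECs and in Lats2 cKO against control had a Pearson correlation of -0.78 (Spearman -0.75), against -0.42 (Spearman -0.37) across the 10471 genes tested in both. This is across genes, which are not independent replicates, and the sets also differ in the share of blood cell transcripts. The 12 members called higher in Lats2 cKO had negative fold changes in bmECs, all 12, with a median of -0.15. The other 31 had a median of -0.02 and 18 negative ones. Only 37.0% of all genes tested in both had the same sign in these comparisons, and 25.6% of the members. How many of all genes called higher in Lats2 cKO were negative in bmECs was not counted. Between the libraries labelled Yap1/Taz ECKO and Lats2 cKO the Pearson correlation of the members was -0.28 (Spearman -0.12, n = 44), against -0.09 over 9700 genes, and between bmECs and the libraries labelled Yap1/Taz ECKO 0.31 (Spearman 0.21, n = 43), against 0.13 over 9411 genes. Psmc4, Psmg1 and Psmb5 had the fold changes 1.04, 1.10 and 0.85 in Lats2 cKO, -0.43, -0.26 and -0.26 in bmECs, and -0.25, -0.45 and -0.58 in the libraries labelled Yap1/Taz ECKO.

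**Figure D5:**
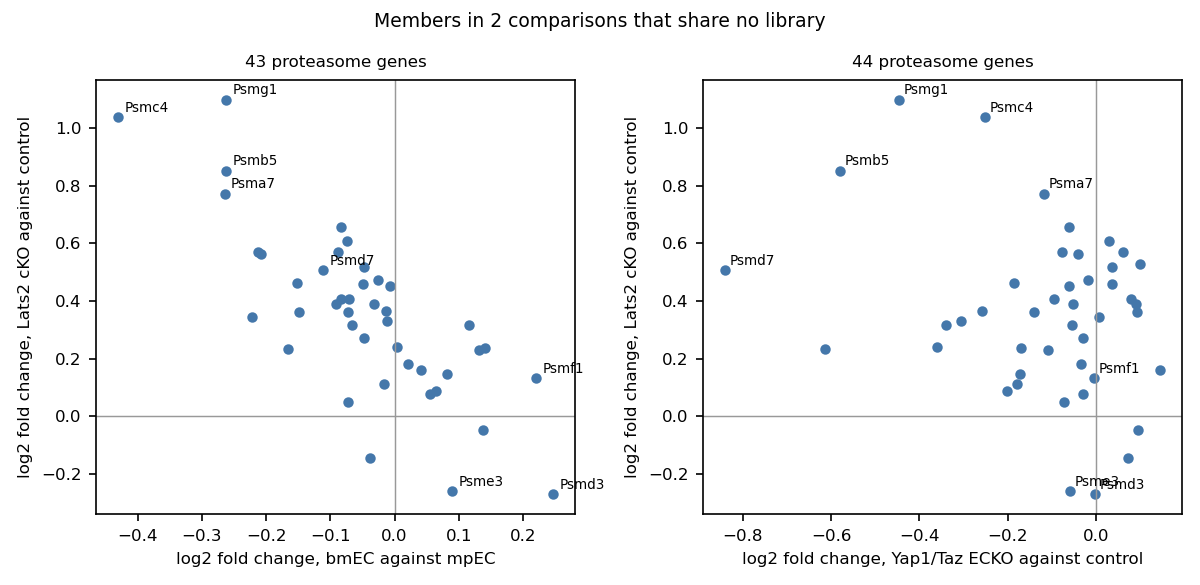
Log2 fold change of each member in bmECs against mpECs (left) and in the libraries labelled Yap1/Taz ECKO against control (right), each against its fold change in Lats2 cKO against control. On the left 43 members are shown with a Pearson correlation of -0.78, and on the right 44 with -0.28.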

How the data were processed

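RNA-seq values of 16 libraries were used, 3 each of mpEC, bmEC, Yap1/Taz control and Yap1/Taz ECKO and 2 each of Lats2 control and Lats2 cKO, grouped by their labels. The values are in FPKM, as the authors deposited them. Reads were mapped to GRCm38 (mm10) with TopHat and counted with HTSeq 0.6.1, but how counts became FPKM, and the strand setting, is not stated. Identifiers of the Yap1/Taz files were matched to symbols (21375 of 21603; 228 had none).

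Genes past the limit of 1 FPKM were fitted with limma 3.58.1 (R 4.3.3) on log2(FPKM + 1), with empirical Bayes moderation, a mean-variance trend and a term for the group. Tests are two-sided, with Benjamini-Hochberg adjustment over all genes tested. Shares were compared with exact permutation tests over libraries. Reads were recovered with exon lengths from GENCODE M21 of GRCm38: in each library 62.3% to 70.0% of the low values came within 0.02 of whole reads. Depth was 4740969 to 14807040 reads per library, and replicates differed by more than counting noise. Tables and plots were made with Python 3.11.15, pandas 2.3.3, numpy 2.4.6 and matplotlib 3.10.9. The fits were tested on simulated data.

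Named with values were the 5 called members with the largest fold changes in each direction, those past the study's rule, the cutting subunits, Psmd2, Psmd4, Psmd14, the activators, Psmf1 and the most and least abundant member. Members and lists were chosen with earlier results of these data known, and some results of the lists are not reported here. Libraries were treated as unpaired, as no pairing is stated. Over all genes tested, the residuals of equal numbers correlated at 0.307, 0.0876 and 0.102 for mpECs and bmECs, and those of unlike numbers at -0.206 to 0.115. A pairing of mpECs and bmECs can thus not be excluded. Equal numbers correlated at -0.175, -0.123 and -0.155 for Yap1/Taz. For Lats2 the value was 0.0651, but with 2 libraries a group every pair has this size, so it cannot tell. Alternatives were a pseudocount of 0.1, no filter, a filter at 5 FPKM, quantile normalization, median ratio scaling and scaling to equal sums of FPKM without hemoglobin genes. Further ones were no trend, array weights, replicate blocks and each library left out. Limma-voom on recovered reads was chosen after seeing the data.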

Additional observations from a re-analysis of the deposited data

How the results depend on the processing

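No result changed direction with a call on either side. For bmECs against mpECs the count of members called lower, 1, was 0 with the rule of the study's methods. With a filter at 5 FPKM it was 2, where 2079 of all 6839 genes were called, 1255 of them higher. With median ratio scaling it was 2 (2668 of 11422 genes called, 1417 higher) and with the replicate block 2 (3072 of 11422 called, 1597 higher). It was 12 with quantile normalization, 10 without the hemoglobin genes and 21 with limma-voom, with the counts over all genes given above. It was 1 to 3 when a library was left out. The median of -0.05 was -0.14 with quantile normalization, -0.16 without the hemoglobin genes and -0.25 with limma-voom, and -0.0909 to -0.0132 when a library was left out. For the libraries labelled Yap1/Taz ECKO the count called lower, 0, was 1 with quantile normalization, 3 with array weights, 2 with limma-voom and 0 to 1 when a library was left out, and 0 with the replicate block; the median of -0.06 was -0.0980 to -0.0471 when a library was left out. The fold change of Wwtr1 was 0.78 without a filter (adjusted p = 0.0679) and 0.78 without the trend (adjusted p = 0.0570), no longer called, and 0.72 to 0.89 when a library was left out; over all its alternatives the adjusted p was 0.00453 to 0.180.

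For Lats2 cKO the count called higher, 12, was 0 with the rule of the study's methods, 3 without a filter, 6 with quantile normalization, 3 without the hemoglobin genes, 4 without the trend, 7 with the replicate block and 0 to 14 when a library was left out, and the count called lower, 0, was 1 without the hemoglobin genes. Counts over all genes for the fits with all libraries stand beside the Lats2 result above. The median of 0.36 was 0.22 with quantile normalization, 0.088 without the hemoglobin genes, 0.24 with limma-voom and 0.30 to 0.42 when a library was left out. Lats2 passed the threshold without the hemoglobin genes (-0.56, adjusted p = 0.0475) and with limma-voom (-0.44, adjusted p = 0.0434), with an adjusted p of 0.0434 to 0.422 over all alternatives. The cause was not tested.

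With libraries scaled to equal sums without the hemoglobin genes the median of all genes moved by -0.24 in Lats2 cKO and -0.10 in bmECs. With limma-voom it moved by -0.14 and -0.19. The percent of calls that were higher fell from 55.2 to 37.2 and 27.0 in bmECs, from 54.1 to 29.9 and 38.3 in Lats2 cKO, and with limma-voom from 67.6 to 57.4 in the libraries labelled Yap1/Taz ECKO. The 9 shares of the immunoproteasome kept their direction without any single library. Few reads limit Psma8 and Psmb11 in all sets, Psmg4 in the Lats2 set, and Psmg3 and Yap1 in the Yap1/Taz set.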

Other observations

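Of the 4 chaperones of the core, Psmg1 was the 1 called in Lats2 cKO. The other 3 also had positive fold changes in the main analysis, but Psmg2 (0.05, adjusted p = 0.811) kept its sign in 9 of 14 alternatives and Psmg3 in 13 of 14. Psmg4, chosen after its values were seen, had 16.3 and 13.05 FPKM in the controls and 22.0 and 20.7 FPKM in Lats2 cKO, without overlap and without a call (0.52, SE 0.15, adjusted p = 0.0646, on 43 to 57 reads), and its partner Psmg3 overlapped at 8.75 and 6.80 and 8.52 and 10.1 FPKM (0.23, adjusted p = 0.372). The deubiquitinases of the cap, Uchl5 and Usp14, had 24.0 and 23.7 FPKM against 31.1 and 31.9 FPKM (0.39, adjusted p = 0.0636) and 13.8 and 14.0 FPKM against 16.9 and 19.0 FPKM (0.35, adjusted p = 0.107). Both were higher in Lats2 cKO without being called. Fbxo7, a factor that binds Psmf1, was lower at 2.53 and 2.76 FPKM against 4.26 and 5.44 FPKM (-0.68, adjusted p = 0.0551).

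Summed over the tested members, the FPKM of the mpEC libraries were 4606, 4162 and 4366 (0.989%, 1.01% and 1.02% of all FPKM), and those of the bmEC libraries 4357, 4173 and 3925 (0.858%, 0.843% and 0.880%). The sums overlapped, while the shares of all FPKM were lower in every bmEC library. In the Yap1/Taz controls the sums were 2236, 2042 and 2058 (0.739%, 0.704% and 0.691%) and in the libraries labelled Yap1/Taz ECKO 1914, 2102 and 2001 (0.647%, 0.674% and 0.651%), again with overlapping sums and lower shares. In the Lats2 set they were 2734 and 2663 in the controls and 3421 and 3846 in Lats2 cKO (0.799% and 0.781% against 0.894% and 0.864%), both higher in Lats2 cKO without overlap.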
